A study of Mus musculus with 4 samples.

Results

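The 10 genes described here encode the ATG12 conjugation machinery (Atg12, Atg5, Atg7, Atg10, Atg16l1 and Atg16l2) and the proteins that bring membrane lipid to the growing autophagosome (Atg9a, Atg9b, Atg2a and Atg2b). They were chosen by name. Of them, 6 had an entry in the deposited tables of autophagy peaks and of differential-peak genes, which together name 9238 genes. N6-methyladenosine (m6A), a methyl mark on RNA, was mapped in MIN6 cells, an insulin-secreting line from a C57BL/6 mouse insulinoma that stands in for pancreatic beta cells. One arm had received a control vector and the other a GR expression vector, with 10 µg of plasmid per dish in both, and RNA was taken 24 hours later. Cells of both arms grew in medium with 25 mM glucose. GR is read here as the glucocorticoid receptor, since the labels give only the abbreviation. Each arm had 1 input library and 1 library of RNA pulled down with an anti-m6A antibody, so none of the differences below has a replicate check or a test. The deposited tables give the comparison of the arms and no value per library, and the sequencing depth is unknown. RNA levels were not analysed here, so neither the identity of the cells nor the level of the introduced GR could be checked.

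In autophagy a membrane sac, the phagophore, grows around cargo and closes into an autophagosome. ATG12 is a ubiquitin-like protein that ATG7, an E1-like enzyme, activates and ATG10, an E2-like enzyme, joins to ATG5. The ATG12-ATG5 conjugate binds ATG16L1, and the complex helps to attach LC3 to lipid on the phagophore. ATG9A is a lipid scramblase carried on small vesicles, and ATG2A and ATG2B are rod-shaped proteins that move lipid from the endoplasmic reticulum into the phagophore. In beta cells autophagy removes damaged organelles and surplus insulin granules. The m6A mark is commonly found near stop codons and in 3' UTRs and is known to affect how long a transcript lasts.

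In the authors' deposited table of autophagy genes, 6 of the 10 genes had 7 m6A peaks, and all 7 had a log2 fold change below 0, that is, a weaker peak with GR. This direction was fixed by the table, in which 100% of the 31 peaks were below 0. At or below a log2 fold change of -1 were 6 of the 7 peaks (85.7%), against 83.9% of all 31. The share is thus close to that of the table as a whole. The median log2 fold change of the 7 peaks was -1.28 in the authors' deposited table, a 2.42-fold lower signal, against -1.48 for the other 24 peaks and -1.47 for all 31. The table does not say how the fold was normalised, so less m6A per transcript and fewer copies of the transcript cannot be told apart.

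**Figure D1:**
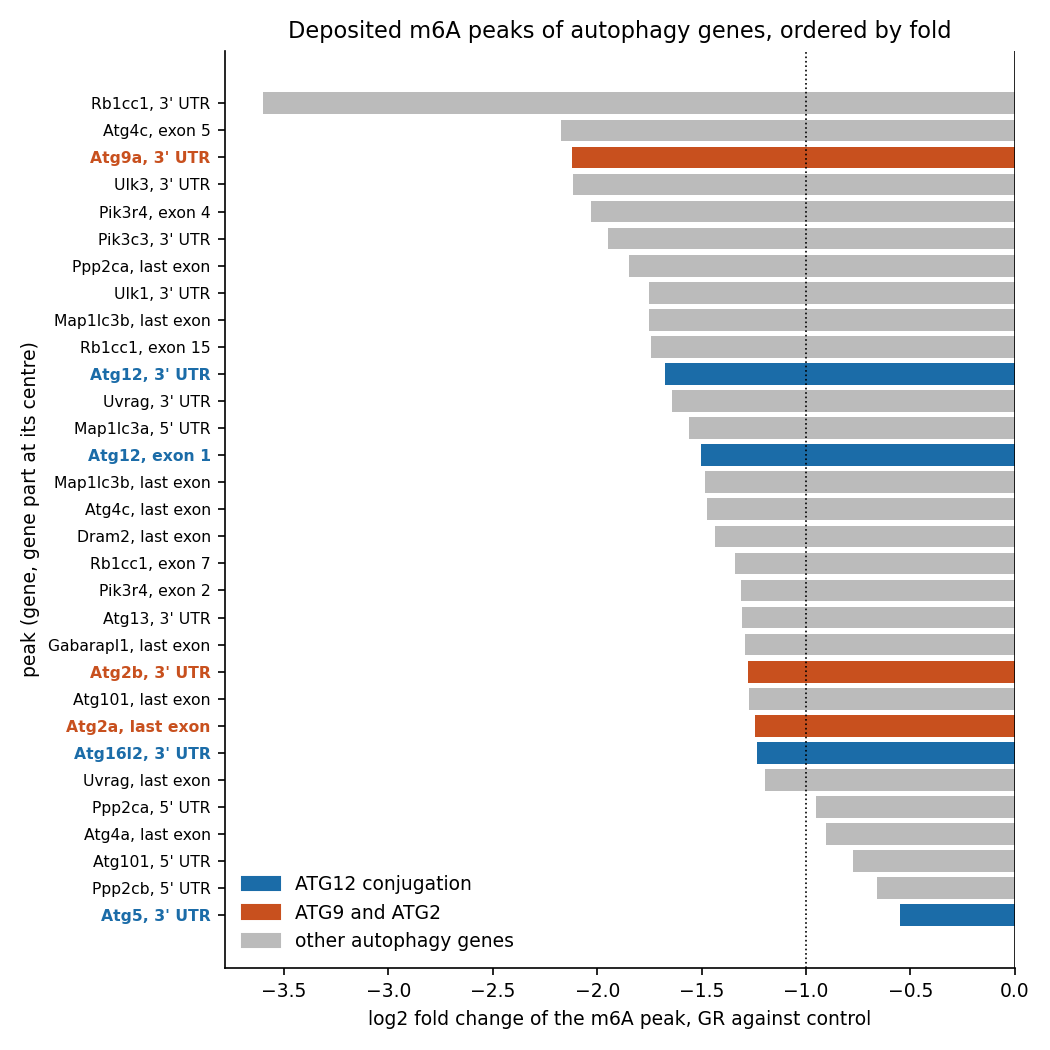
Each bar is 1 m6A peak of the authors' table of autophagy genes, with its log2 fold change (GR against control) on the x axis and the gene and the part of it under the peak's centre on the y axis; blue bars are ATG12 conjugation genes, orange bars ATG9 and ATG2 genes, and the dotted line marks -1. The 7 coloured peaks run from -2.12 (Atg9a) to -0.55 (Atg5), the latter being the smallest change of the 31.

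Of the conjugation genes, Atg12 had 2 peaks, Atg5 and Atg16l2 had 1 each, and Atg7, Atg10 and Atg16l1 had none in the table. Atg12, the ubiquitin-like modifier itself, had one peak in its 3' UTR (chromosome 18, 46734186 to 46734447, mm10) with a log2 fold change of -1.67 in the authors' deposited table, a 3.19-fold lower signal. Its other peak, in exon 1 (46741409 to 46741538), was at -1.51 in the authors' deposited table, or 2.84-fold lower. The exon 1 peak lies near the start of the gene, and the centre of the 3' UTR peak 20.4% of the gene length short of its end. These peaks differed by 0.17 on the log2 scale, with no error known for either. The Atg12 peak in exon 1 was the narrowest of the 31, at 130 bases, and was the only one of the 7 that did not touch the last exon or the 3' UTR.

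Atg5, the protein to which ATG12 is joined, had a 3' UTR peak (chromosome 10, 44363158 to 44363362) at -0.55 in the authors' deposited table, or 1.46-fold lower. The transcripts of both partners of the conjugate were therefore in the table, with the 3' UTR peak of Atg12 1.12 further down on the log2 scale than that of Atg5. The Atg5 peak was also the single one of the 7 above the limit of -1. The next mildest was Atg16l2, a paralog of ATG16L1 whose part in autophagy is less well defined. Its 3' UTR peak (chromosome 7, 101289678 to 101289818) was at -1.23 in the authors' deposited table, or 2.35-fold lower. For Atg16l1 itself, the member of this pair that recruits LC3 conjugation to the phagophore, the table has no peak, and none for Atg7 and Atg10, the enzymes that act on ATG12 before it reaches ATG5. Whether those 3 transcripts had no peak, a peak that did not differ, or a differing peak that was not tabulated is not given.

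Atg9a had the lowest of the 7 values, in its 3' UTR (chromosome 1, 75181490 to 75181858), at -2.12 in the authors' deposited table, a 4.35-fold lower signal. It was the 3rd lowest of all 31 peaks. Atg9b, the paralog of Atg9a, had none. The 2 lipid transfer genes lay close together. Atg2b (chromosome 12, 105616981 to 105617189) was at -1.28 in the authors' deposited table with its centre in the 3' UTR, or 2.42-fold lower. Atg2a (chromosome 19, 6261659 to 6262217) was at -1.24 in the authors' deposited table with its centre in the last exon, or 2.37-fold lower. They differed by 0.03 on the log2 scale, and Atg9a lay 0.85 below Atg2b. From the lowest to the mildest, the 7 peaks ranked 3, 11, 14, 22, 24, 25 and 31 among the 31. With no error per peak, none of the 7 can be said to differ from another, whether near or far apart in this order.

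Of the 7 peaks, 5 (71.4%) had their centre in a 3' UTR, against 6 of the 24 other peaks (25.0%). By the end of the peak the counts were 6 of 7 (85.7%) and 12 of 24 (50.0%), and by its begin 4 of 7 and 3 of 24. No test of this difference was made. The 2 remaining were the exon 1 peak of Atg12 and the last-exon peak of Atg2a. The Atg2a and Atg2b peaks both begin in the last exon and end in the 3' UTR, so each crosses from one part into the other. The peaks of Atg12 (3' UTR), Atg5, Atg16l2 and Atg9a lie within the 3' UTR from begin to end. Peak widths ran from 130 to 559 bases with a median of 209, against a median of 301 for the other 24.

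Measured along the genome to the 3' end of the RefSeq gene (GRCm38.p6), the centre of the Atg2a peak lay 0.366 kb away, that of Atg9a 0.813 kb and that of Atg5 1.04 kb. The 3' UTR peak of Atg12 was 1.90 kb, the peak of Atg16l2 3.42 kb and that of Atg2b 3.55 kb from the end. Expressed as a share of gene length, the Atg5 peak lay within the last 1.08% of a gene of 95978 bases, whereas the Atg16l2 peak was 21.5% of the gene length short of its end. These distances may include introns. None of the 7 peaks overlapped another RefSeq gene (0 of 7).

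**Figure D2:**
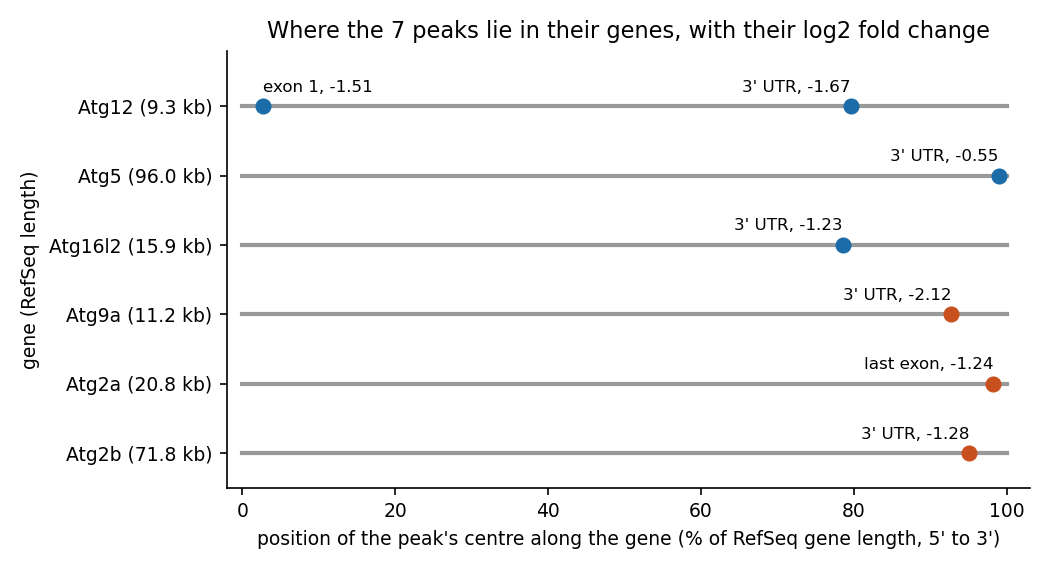
Each horizontal line is 1 gene drawn from its 5' to its 3' end, as a percentage of its RefSeq length on the x axis, and each dot is the centre of a peak, labelled with its gene part and its log2 fold change. Apart from the exon 1 peak of Atg12, the dots lie toward the 3' end, with the 3' UTR peaks of Atg12 and Atg16l2 furthest from it.

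The sequence under the peaks was not read, as no genome was used. Start regions were available from RefSeq (GRCm38.p6, 250 bases before to 50 after the gene start) for 8 of the 10 genes, Atg12 and Atg16l1 being the exceptions. Because GR is a DNA-binding receptor, these windows were searched on both strands for AGAACA, 1 arm of the glucocorticoid response element, and for the full element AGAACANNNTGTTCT, every match of which also contains the shorter one. The short element was found in 2 of the 8 windows, of Atg5 and Atg2b, against 19.0% of all 32851 windows, and the full element in 0 of the 8 against 0.00913% of all. The matches are shown in 30 bases each, read on the strand of the gene, with the element in capitals.
Atg5 (chr10:44268136-44268165, plus strand): cctttatttctcTGTTCTtccacaactgtc
Atg2b (chr12:105685428-105685457, minus strand): tgcgagcgcccaTGTTCTtatccttcctcg
The element begins 191 bases before the start site used for the window of Atg5 and 204 bases before that of Atg2b. A match of letters is a description and not a binding site, and these windows do not overlap the m6A peaks.

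Partners of these proteins were described from 3 further lists. On the LC3 and GABARAP branch, which shares ATG7 with the ATG12 branch, 5 of 10 genes had 7 peaks, with a median log2 fold change of -1.48 in the authors' deposited table. The lowest value of this branch in the authors' deposited table was -2.17 for Atg4c and the mildest -0.90 for Atg4a, both LC3 proteases. Map1lc3b, an LC3 gene, had peaks at -1.75 and -1.48 in the authors' deposited table, Map1lc3a at -1.56 and Gabarapl1 at -1.29. Of that branch 0 of 7 peaks had their centre in a 3' UTR, against 5 of 7 for the ATG12, ATG9 and ATG2 genes. By the end of the peak these counts were 3 of 7 and 6 of 7, and the difference was not tested.

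Among 9 genes for proteins that bind ATG16L1, ATG12-ATG5, ATG9A or ATG2, only Rb1cc1, the FIP200 scaffold to which ATG16L1 binds, was in the autophagy table. Its 3 peaks were at -3.60 in the 3' UTR, -1.74 in exon 15 and -1.34 in exon 7 in the authors' deposited table, the first being the lowest of all 31. The phosphoinositide-binding genes Wipi1, Wipi2, Wdr45 and Wdr45b and the scramblase genes Vmp1 and Tmem41b had no peak there. Among 10 genes linked to the traffic of ATG9A vesicles, Ulk1 had a peak at -1.75, Atg13 one at -1.31 and Atg101 2, at -1.27 and -0.78, in the authors' deposited table. The adaptor complex genes Ap4e1, Ap4b1, Ap4m1 and Ap4s1, whose complex exports ATG9A from the Golgi, had no peak in the table. All 4 peaks of the vesicle traffic list were thus those of Ulk1, Atg13 and Atg101, and its 7 other genes had none. Of these 4 peaks, 2 had their centre and 3 their end in a 3' UTR. Of the 3 peaks of the binding partners it was 1 by either.

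**Figure D3:**
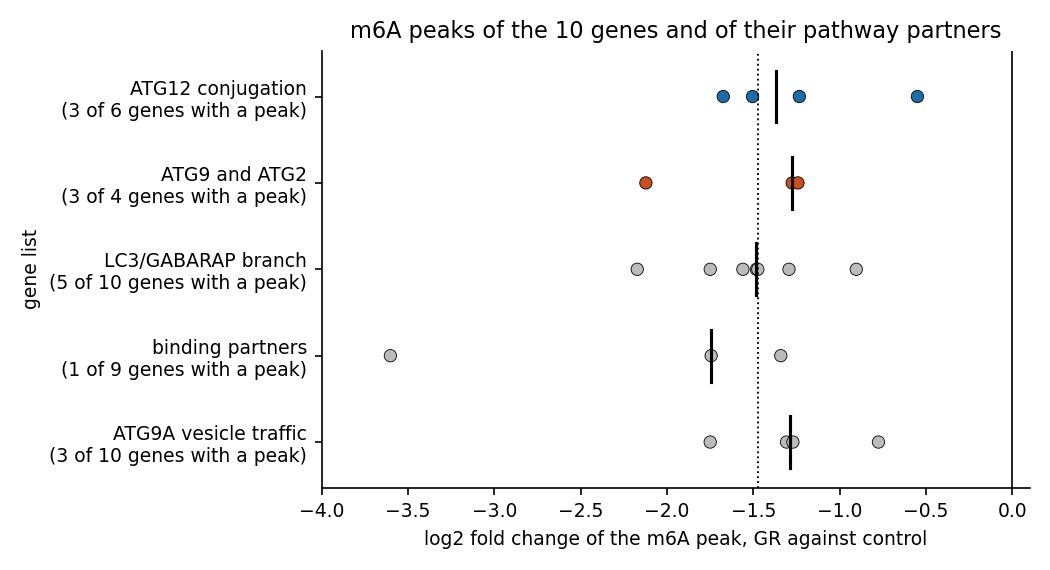
Each dot is 1 m6A peak, with its log2 fold change (GR against control) on the x axis and the gene list on the y axis; black bars are list medians and the dotted line is the median of all 31 peaks, -1.47. The ATG12 conjugation list has a median of -1.37 over 4 peaks and the ATG9 and ATG2 list -1.28 over 3.

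The gene table of the series names the genes of differential peaks, one per line, but gives no position, fold or direction. It does not explain what 1 line represents. Of the 10 genes, Atg12 was listed on 1 line and Atg16l2 on 2, and the other 8 were absent. This is 20.0% of the genes, with an exact Clopper-Pearson 95% interval of 2.52% to 55.6% that covers counting error only, against 25.2% of 21900 protein-coding genes. Atg5, Atg9a, Atg2a and Atg2b each had a peak with a fold in the autophagy table and no line here. Absence from this table therefore does not mean that a gene lacked a differential peak, and for Atg7, Atg10, Atg16l1 and Atg9b, which were in neither table, it says little. The table annotates Atg12 with a ubiquitin-like domain and Atg16l2 with WD40 repeats.

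On the LC3 and GABARAP branch 6 of 10 genes were listed, namely Atg3, Map1lc3a, Map1lc3b, Gabarap, Atg4c and Atg4d. Atg3, the E2-like enzyme of that branch and the counterpart of Atg10, was on 1 line and Atg10 on none. Of the binding partners 3 of 9 were listed, with Wdr45b and Rab33b, a small GTPase that binds ATG16L1, on 3 lines each and Tmem41b on 1. Of the vesicle traffic genes 2 of 10 were listed, Snx18 and Atg101, on 2 lines each. Lines per gene were uneven, with 14 for Map1lc3b. For comparison, 25.2% of all protein-coding genes and 9 of the 22 genes of the autophagy table (40.9%) were listed. Differences between these shares were not tested.

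Of the 10 genes, the deposited enrichment tables hold Atg12 and Atg16l2 alone, the same members that the gene table lists. Whether their input was the gene table was not checked. In the authors' deposited table of KEGG pathways 3 of 290 pathways held one of them. FoxO signaling, which counts Atg12, had 63 input genes against 135 in the background, and the authors' deposited table gives it an adjusted p of 9.47e-08. RIG-I-like receptor signaling, an antiviral pathway that also counts Atg12, had 24 against 69, and the authors' deposited table puts its adjusted p at 0.0142. Regulation of autophagy, which holds both genes, had 11 against 40, and the authors' deposited table puts its adjusted p at 0.213. An adjusted p below 0.05 was given to 2 of these 3 pathways, and to 66.9% of all 290.

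In the authors' deposited table of Gene Ontology (GO) terms, 104 of 16568 terms listed a member. Atg12 was in 71, Atg16l2 in 64 and both in 31. The p in the authors' deposited table is 1 for every term, so 0% were below 0.05 and terms can be described only by their counts. The smallest terms that hold both genes were autophagosome, with 32 of 89 background genes listed (36.0%), autophagosome assembly with 38 of 92 (41.3%), autophagosome organization with 38 of 95 (40.0%), vacuole organization with 61 of 154 (39.6%) and macroautophagy with 76 of 187 (40.6%). The table's gene lists together hold 5409 distinct IDs, 26.0% of its background of 20770, while its stated total of 10022 genes is 48.3%. The shares of these 5 terms lie between those values.

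Small terms on the conjugation step, picked after their counts were seen, show what the tables hold of it. Atg8 ligase activity had 2 of 2 genes listed, Atg3 and Atg12. The Atg12-Atg5-Atg16 complex had 1 of 3, which was Atg12, and C-terminal protein lipidation had 1 of 6, again Atg12. Atg5 was not counted in any term, and neither were Atg9a, Atg2a and Atg2b, which also had a peak in the autophagy table. Atg16l2 was counted without Atg12 in autophagosome membrane, with 10 of 31 genes (32.3%), and Atg12 without Atg16l2 in phagophore assembly site, with 10 of 33 (30.3%).

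**Figure D4:**
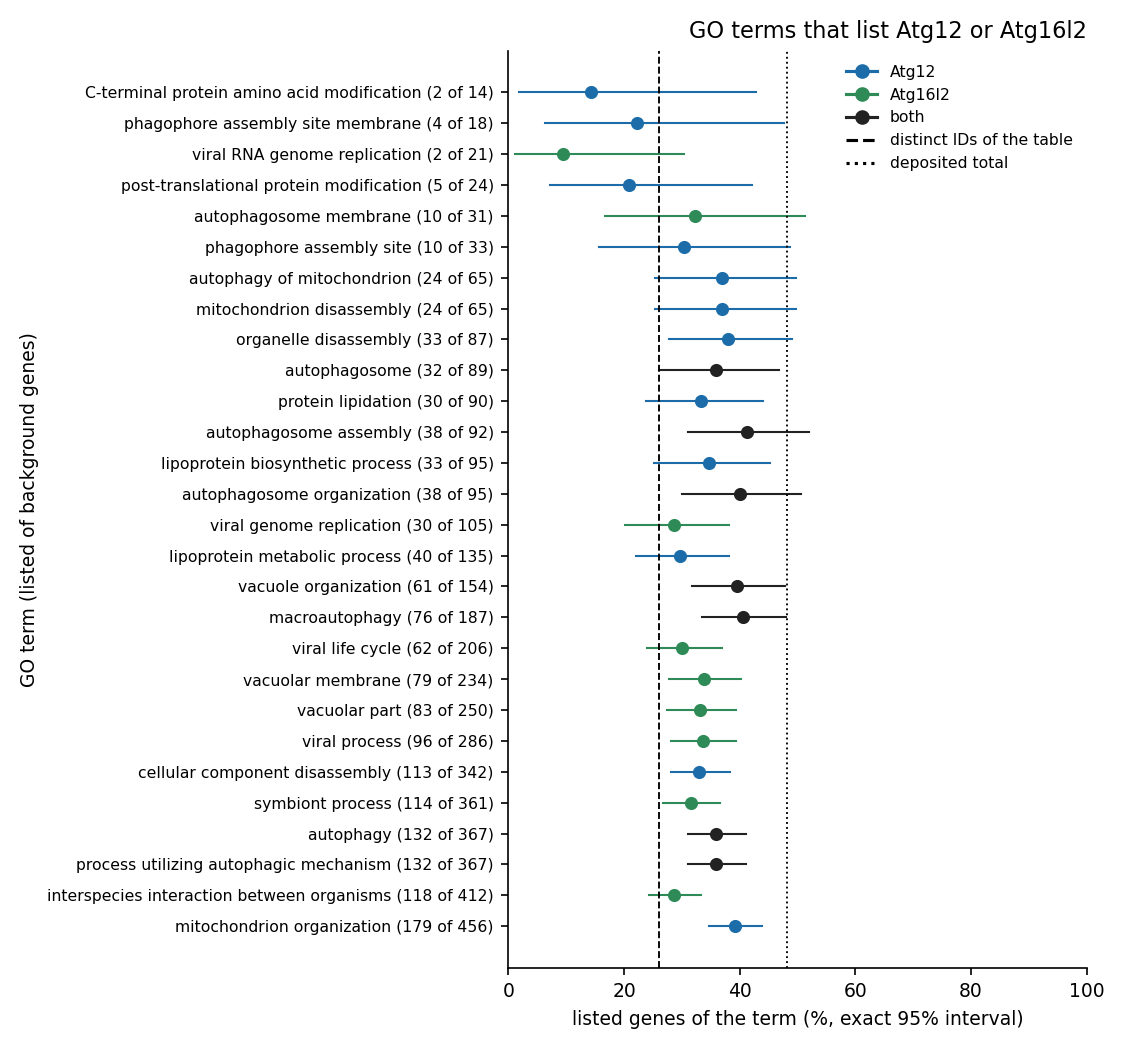
Each dot is a GO term with 10 to 500 background genes that lists Atg12 (blue), Atg16l2 (green) or both (black), with the share of its background genes that are listed on the x axis; bars are exact 95% intervals for counting error, the dashed line is 26.0% (distinct IDs) and the dotted line 48.3% (deposited total). The 28 terms run from 9.52% to 41.3%, and those that hold both genes lie between the lines.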

How the data were processed

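Per the labels' protocols, fragments of mRNA bound by an anti-m6A antibody were sequenced in read pairs beside their input. The build mm10 and the tools BWA 0.7.12 and HOMER 4.9.1 are named in the submitters' processing notes; the caller of differential peaks and its thresholds are not given in the sources used here. The autophagy table holds, per the file headers, start, end, log2 fold change and gene part of each peak, and the sign was read from its title (GR against control). The authors' KEGG table holds counts of genes with p-values from a hypergeometric or Fisher exact test with Benjamini-Hochberg adjustment, per the file headers. The authors' GO table holds gene counts and p-values.

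Autophagy lines were split on white space, with symbols carried down. Chromosomes and gene bounds came from RefSeq (GRCm38.p6) by symbol, strands from its start regions, and that of Atg12 from the order of its own peaks. Genes were matched to the gene table by Ensembl ID through a table of gene names, which matched all 10 members. In the GO terms' table, 63 overflow lines were joined to their terms, after which the IDs read equalled the stated count in 16558 of 16568 terms and were 1 off in the others. The readers were tested on simulated data. Calculations used Python 3.11.15, pandas 2.3.3, SciPy 1.17.1 and Matplotlib 3.10.9. All 10 genes were named, partners were named where a table held them, and KEGG pathways where they held a member. GO terms with both genes were named from the smallest up. Partners without an entry and GO terms with 1 member were chosen after their values were seen. The members and lists were chosen with earlier results of these data known. The search for response elements was added later.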

Additional observations from a re-analysis of the deposited data

How the results depend on the processing

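No paired analysis was possible because each group has 1 library and the tables give the comparison alone. The 7 lower peaks were 6 when only those of at least 1 in absolute log2 fold were kept and 6 when genes were counted. Their median of -1.28 (log2) became -1.26 with 1 value per gene, by largest fold or by mean. The 5 peaks in a 3' UTR were 4 by the begin and 6 by the end of the peak, while the 6 of the other 24 peaks became 3 and 12, and 2 genes were listed by ID or by deposited symbol. These settings regroup the same few rows, so they say nothing about replicate error. Of the 104 GO terms that hold a member, 1 had a share above that of the deposited total (48.3%) and 96 had one above that of the distinct IDs (26.0%), so a reading of these shares depends on the total. The total of 10022 exceeds the 9225 IDs of the gene table and what it counts is not stated. With each Entrez gene counted once, the share of background genes in the input was 43.7% in place of 46.7% for FoxO signaling, 33.3% in place of 34.8% for RIG-I-like receptor signaling and 27.5% as before for regulation of autophagy. Depth is unknown, so no limit can be given for the 4 genes in neither table.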

Other observations

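Genes beside the 10 members were looked up in the gene table, with the distance of 3000 bases set after the tables were read. RefSeq places 19 genes within that distance, 9 of them overlapping a member, and 15 matched an ID. Of the 19, 5 were listed, all among the 15 with an ID, since a gene without one could not be matched. Over all protein-coding genes 25.2% were listed, while the 19 also include other gene types, and no difference was tested. Abcb6 and Ankzf1, which flank Atg9a at 469 and 150 bases, were on 2 lines each, although Atg9a, with the lowest peak of the members, was on none. Scarna6, a small guide RNA gene inside Atg16l1 (chromosome 1, 87784571 to 87784818), was on 1 line, and so were Vgll4, 17 bases from Atg7, and Mir194-2, 2339 bases from Atg2a. The table gives no peak position, so it is not known whether the line of Scarna6 refers to RNA from Atg16l1. Ap3s1, which overlaps the start of Atg12, and Nos3, which overlaps the end of Atg9b, were not listed.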
